A study of Mus musculus with 14 samples.

Results

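The genes of the common gamma chain cytokine receptor family were examined in RNA-seq of mouse lung group 2 innate lymphocytes (ILC2s). The 8 members, Il2 and the 7 receptor genes Il2ra, Il15ra, Il2rb, Il2rg, Il4ra, Il7r and Il21r, were chosen by name, and all 8 were found among the 53278 genes of the deposited tables. The study had 14 libraries in 2 experiments, each from lung cells sorted as live, lineage-, CD90.2+ and CD3-. In the stimulation experiment, ILC2s of female B6 mice were left without stimulation (Unstimulated, n = 4) or received 20 ng/mL of IL-33 for 24 h (IL-33 stimulated, n = 4). By the study's methods, the Unstimulated cells were kept in complete RPMI. In the Blimp-1 experiment, ILC2s of female ControlIL7RaCre mice (Control, n = 3) and Blimp-1IL7RaCre mice (Blimp-1-deficient, n = 3) were activated for 72 h in 20 ng/mL of IL-33 together with 20 ng/mL of IL-25. IL-33 and IL-25 are alarmins, cytokines released by stressed epithelium that activate ILC2s. Blimp-1, encoded by Prdm1, is a transcriptional repressor.

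Some features of the design touch these genes directly. Cre in the Blimp-1 experiment is expressed from Il7r, itself a member, is carried by Control and Blimp-1-deficient mice alike, and by no mouse of the stimulation experiment, and it deletes in other ILC subsets, T cells, B cells and NK cells as well as in ILC2s. The study's methods add recombinant IL-2, a ligand of these receptors, to the 72 h culture, which the labels do not list. A general culture method of the study has IL-2 in all ILC2 cultures, so the 24 h cultures may also have held it. The labels give no culture time for the Unstimulated cells. The series' design text has them in culture for 24 h, but the study's results section calls them ex vivo. If these cells were not cultured, the effects of IL-33 and of 24 h in culture cannot be told apart. The experiments differ in genotype, cytokines and time, so the text makes no test between them.

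The common gamma chain, encoded by Il2rg, is the shared signalling subunit of the receptors for IL-2, IL-4, IL-7, IL-9, IL-15 and IL-21. Each cytokine is recognised by a private chain, and signals pass through JAK1 and JAK3 to STAT transcription factors, mainly STAT5 for IL-2, IL-7, IL-9 and IL-15, STAT6 for IL-4 and STAT3 for IL-21. ILC2s depend on IL-7 for their development, and IL-2 supports their survival and growth in culture.

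The stimulation libraries held 10470125 to 32849428 counts each, and the Blimp-1 libraries 13570188 to 76448945. A pair of libraries stood apart. In Control replicate 2, 76.8% of counts fell on 7 loci (mt-Rnr2, Lars2, CT010467.1, Mir6236, Gm15564, Gm26917 and Gm23935) that took 0.258% to 4.12% in the other 13 libraries. This left 3150795 counts for all other genes, and its Col1a1 level was 2171 CPM (counts scaled to 1000000 per library after TMM normalization). IL-33 stimulated replicate 3 was the shallowest of its experiment. Some markers of other cells were higher in it, with Csf1r at 27.2 CPM against 0.486 to 2.17, S100a9 at 4.63 CPM against 0 and Col1a1 at 237 CPM against 55.7 to 67.7 in the other stimulated libraries, while Cd68 (7.58 CPM) and Itgax (7.09 CPM) were lowest in it. The fold change of each member is therefore given with and without the library of its comparison. Prdm1 checked the Blimp-1 labels, with 75.2, 92.8 and 74.0 CPM in Control against 14.6, 11.5 and 11.4 CPM in Blimp-1-deficient ILC2s. All 12 ILC2 markers, among them Gata3 and Il1rl1, had more than 3 counts in every library, but their levels shifted. In every IL-33 stimulated library 7 were lower and 3 higher than in every Unstimulated one, beside 20.9% and 17% of all genes. Gata3 was among those lower, at 996 to 1043 CPM in Unstimulated and 492 to 692 CPM in stimulated libraries. So was Il1rl1, at 2375 to 2570 and 1096 to 1481 CPM. In every Blimp-1-deficient library 4 were higher and 4 lower than in every Control, beside 11.8% and 10.8% of all genes.

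In the mouse genome (GRCm38, GENCODE M21) the members lie on 5 chromosomes, and some are direct neighbours. Il2 (ENSMUSG00000027720.7) lies at chr3:37120523-37125959 and encodes the T cell growth factor IL-2. Il2ra (ENSMUSG00000026770.5, chr2:11642807-11693193) encodes CD25, the private chain for IL-2. It is followed after 12096 bases by Il15ra (ENSMUSG00000023206.16, chr2:11705290-11734317), the private chain for IL-15, with no annotated gene between them. Il4ra (ENSMUSG00000030748.9, chr7:125552120-125579474), which binds IL-4 and takes part in the IL-13 receptor, is followed after 23954 bases by Il21r (ENSMUSG00000030745.9, chr7:125603429-125633570), the IL-21 chain. Il2rb (ENSMUSG00000068227.9, chr15:78479256-78495271), shared by the IL-2 and IL-15 receptors, and Il7r (ENSMUSG00000003882.5, chr15:9505788-9530176), shared by the IL-7 and TSLP receptors, are far apart on chromosome 15. Il2rg (ENSMUSG00000031304.18) lies at chrX:101264378-101268255.

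Some counts may be shared with other genes. Il2rg shares 30.5% of its exon bases with Gm20489 on the same strand, which had 0 to 2 counts, and Il4ra shares 9.51% with its antisense gene Gm44876, which had 0 to 7. Reads that fit both genes may have been left out, and the strand used in counting is not stated. Of the 75-base stretches of Il2 transcripts, 10.6% are also found in Ntan1. Ntan1 was at 51.2 to 53.6 CPM in Unstimulated and 47.4 to 60.4 CPM in IL-33 stimulated libraries, and at 29.2 to 47.1 CPM in Control and 35.7 to 44.4 CPM in Blimp-1-deficient libraries, with overlapping groups in the Blimp-1 and stimulation experiments. The part of shared reads in the level of Il2 was not tested.

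Promoter sequence was available from RefSeq (GRCm38.p6) for 7 of the 8 members, all but Il2rb. In the 250 bases before each start, 5 motifs were searched on both strands: TTCNNNGAA of STAT factors (in 7.04% of 32536 mouse windows of this length), AGNGAAAG of Blimp-1 (7.29%), AGATAA of GATA factors (9.97%), GGAAAA of NFAT (20.4%) and GGGNNNNNCC of NF-kB (46%). The STAT letters were found in Il7r alone, the Blimp-1 letters in Il4ra alone and the GATA letters in no member. The 4 members below are shown because their stretches hold matches and their fold changes over all libraries had opposite signs in the comparisons that follow, not all past the test. Each is printed 5′ to 3′ on the strand of its gene, without bases that GENCODE places in an exon of the gene, and capitals mark the matches.
Il2 (chr3:37125960-37126204, minus strand): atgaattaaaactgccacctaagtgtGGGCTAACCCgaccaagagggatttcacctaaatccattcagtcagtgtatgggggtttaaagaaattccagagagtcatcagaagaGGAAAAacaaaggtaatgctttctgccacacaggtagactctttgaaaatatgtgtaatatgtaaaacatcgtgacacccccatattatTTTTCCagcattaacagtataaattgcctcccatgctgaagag
Il2ra (chr2:11642542-11642791, plus strand): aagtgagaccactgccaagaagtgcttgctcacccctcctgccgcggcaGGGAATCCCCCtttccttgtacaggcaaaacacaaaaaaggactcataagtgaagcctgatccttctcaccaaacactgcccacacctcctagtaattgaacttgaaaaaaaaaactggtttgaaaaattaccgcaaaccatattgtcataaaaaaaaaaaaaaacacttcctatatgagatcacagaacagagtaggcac
Il4ra (chr7:125552021-125552119, plus strand): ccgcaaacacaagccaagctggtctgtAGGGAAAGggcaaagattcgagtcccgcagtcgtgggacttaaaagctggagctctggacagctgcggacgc
Il7r (chr15:9529877-9530040, minus strand): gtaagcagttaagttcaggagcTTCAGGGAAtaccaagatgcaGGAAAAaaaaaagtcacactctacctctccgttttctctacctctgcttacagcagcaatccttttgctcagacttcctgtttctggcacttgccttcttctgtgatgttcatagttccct
In Il2 the capitals are GGGCTAACCC of the NF-kB pattern and GGAAAA, on both strands, of the NFAT pattern. In Il2ra they are 2 overlapping matches to the NF-kB pattern, in Il4ra AGGGAAAG, and in Il7r TTCAGGGAA followed by GGAAAA. These are matches of letters only, and the motifs were picked with these sequences at hand.

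The levels of the members spanned more than 2 orders of magnitude. Levels of different genes are compared in TPM, which divides counts by gene length and scales them to 1000000 per library, and the Control values are from replicates 1 and 3 because the 7 loci held 93.9% of the TPM of Control replicate 2. Il2ra was the highest in every group, at 1022 ± 91.4 TPM in Unstimulated, 1217 ± 259 in IL-33 stimulated, 1458 ± 102 in Control (SD, n = 2) and 939.99 ± 43.2 in Blimp-1-deficient ILC2s. Il2rb followed at 706 ± 58.8, 720.0 ± 146, 700.4 ± 35.3 and 715 ± 22.4 TPM, and Il2rg at 477 ± 35.4, 502 ± 47.5, 322 ± 21.03 and 439 ± 26.0 TPM. The chains of the IL-2 receptor thus took the top places in all 4 groups. Their ranges did not overlap between neighbours except for Il2rb and Il2rg in IL-33 stimulated libraries.

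Il4ra came next at 168 ± 6.25, 155 ± 44.1, 275 ± 7.21 and 197 ± 0.353 TPM, and Il7r after it at 97.1 ± 7.55, 55.7 ± 7.87, 51.4 ± 1.184 and 76.1 ± 8.76 TPM. Both kept their place in every library of every group. Il21r (9.18 ± 0.974, 3.47 ± 0.521, 8.13 ± 2.45 and 5.09 ± 1.23 TPM) and Il15ra (7.53 ± 1.43, 8.33 ± 2.91, 5.64 ± 0.131 and 7.39 ± 1.02 TPM) were far lower and changed places. Il21r was above Il15ra in 3 of 4 Unstimulated libraries with overlapping ranges and in every Control library, and below it in every IL-33 stimulated and Blimp-1-deficient library. Il2 was the lowest, at 4.34 ± 1.07, 0.200 ± 0.0442, 0.261 ± 0.0899 and 2.56 ± 0.282 TPM.

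The place of Il2rb depends on its length. The deposited table gives it 2785 bases and GENCODE M21 4287 bases, and the other 7 members have equal lengths in both. At the longer length Il2rb came to 459, 468, 455 and 465 TPM in the 4 groups and was above Il2rg in only 2 of 4, 1 of 4, 2 of 2 and 2 of 3 libraries. Comparisons of Il2rb between groups do not change with its length.

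**Figure D1:**
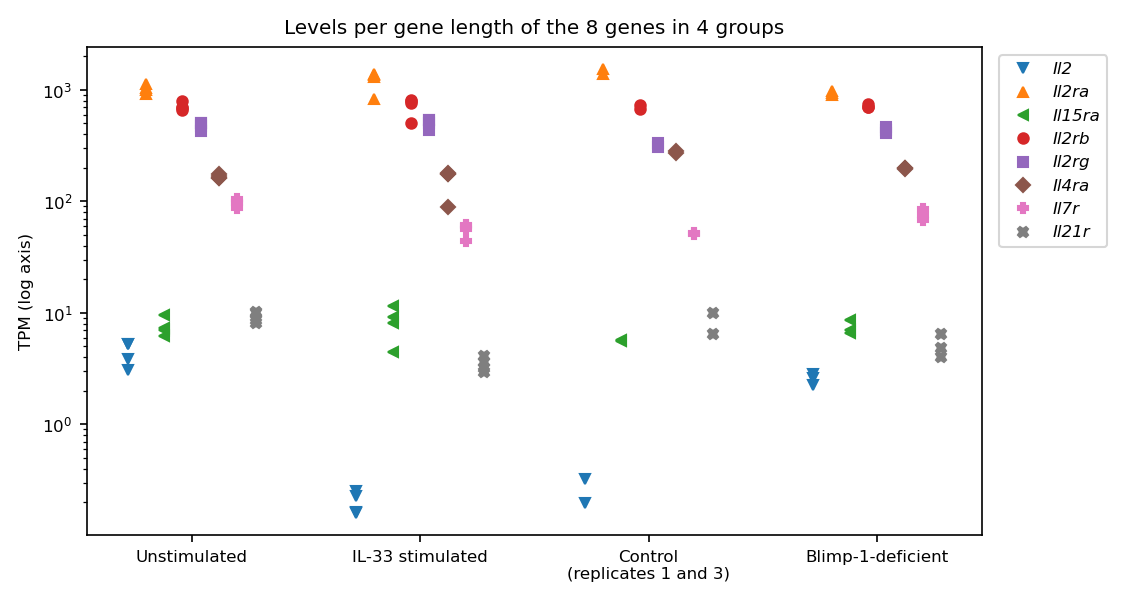
Levels of the 8 genes in TPM (log axis) by group, with 1 symbol per library at the deposited gene lengths and Control replicate 2 left out. Il2ra is at the top of every group, and Il2 is between 0.161 and 5.26 TPM.

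The stimulation comparison asked how the receptor genes differed between IL-33 stimulated and Unstimulated ILC2s. Il2, Il7r and Il21r fell, and Il2ra and Il2rg rose, by the quasi-likelihood test of edgeR (two-sided, Benjamini-Hochberg adjusted p below 0.05 over 15466 genes). These are 2 members higher and 3 lower of 8, beside 16.2% and 16.1% of all genes tested. Without IL-33 stimulated replicate 3, Il2rb and Il4ra also rose, so that 4 members passed upwards and 3 downwards, against 27.5% and 29.7% of all genes. Over all 8 libraries DESeq2 called Il2rb as well (3 higher and 3 lower, against 19.4% and 18.7% of genes), and limma's voom with sample weights called every receptor gene (5 higher and 3 lower with Il2, against 29.5% and 31.5%). The median log2 fold change was 0.28 over the members and 0.06 over all genes. The p-values measure the spread between these libraries. In bulk RNA, fewer cells of a type and less RNA per cell cannot be told apart.

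The ligand gene Il2 had 31, 60, 40 and 39 counts in Unstimulated libraries, or 1.08, 1.72, 1.70 and 1.23 CPM. In IL-33 stimulated libraries it had 3, 2, 1 and 2 counts, or 0.0986, 0.0648, 0.0985 and 0.0708 CPM. Every stimulated library was below every Unstimulated one, and none had more than 3 counts, the limit that a count of 0 still allows. From the summed 170 and 8 counts, the Unstimulated level was 17.8 times the stimulated level (95% interval 8.83 to 41.9, exact, for counting error only), and edgeR gave an adjusted p of 0.000106 over all libraries and 1.41e-05 without replicate 3.

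Transcripts of T cell genes, which a CD3- sort should leave few of, moved with Il2. The 11 T cell markers summed to 198 to 225 CPM in Unstimulated and 52.3 to 79.6 CPM in IL-33 stimulated libraries, none of the 11 was at 0 throughout a group, and the largest part of the sum was Trbc2, at 114 to 122 and 24.2 to 35.2 CPM. For 7 of the 11 every stimulated library was below every Unstimulated one, and the other 4 overlapped. Of all genes tested, 20.9% were lower and 17% higher in every stimulated library. The defining marker Cd3e was at 4.86 to 9.48 and 1.67 to 5.25 CPM. The part of T cells in the level of Il2 was not tested. Of 5 mast cell and basophil markers, Cpa3 was lower in every stimulated library, at 6.68 to 12.8 CPM in Unstimulated and 0 to 0.0708 CPM in stimulated libraries, and the other 4, all low, overlapped or were at 0. Of 6 epithelial and stromal markers, Epcam was lower in every stimulated library, at 52.4 to 69.5 CPM in Unstimulated and 2.27 to 3.55 CPM in stimulated libraries, and Pecam1 was higher, at 48.3 to 80.9 and 109 to 140.04 CPM. Klrk1 of the NK cell and ILC1 markers was lower, at 2.46 to 4.50 and 1.39 to 2.07 CPM, and Cd79b of the B cell markers higher, at 9.53 to 11.9 and 14.6 to 17.7 CPM, with no overlap. The part of these was not tested either.

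The private chain gene of the IL-2 receptor, Il2ra, was at 1815, 1615, 1493 and 1824 CPM in Unstimulated and 2550.5, 2734, 1819 and 2961 CPM in IL-33 stimulated libraries. Stimulated replicate 3 lay within the Unstimulated range and the other 3 above it. Il2ra rose by a log2 fold change of 0.58 ± 0.16 (SE, edgeR adjusted p = 0.0271), and by 0.71 ± 0.08 without replicate 3 (adjusted p = 5.19e-05). The call over all libraries was narrow and was lost without Unstimulated replicate 3 (adjusted p = 0.0905) or without stimulated replicate 1, 2 or 4 (0.0672, 0.079 and 0.0783). The call for Il2ra was also lost with library size alone (adjusted p = 0.0555) and with no filter (adjusted p = 0.119). With limma on TPM it was lost too (log2 fold change 0.23 at either pseudocount, adjusted p up to 0.387), and in all in 8 of 18 alternatives.

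The gene Il2rb, whose product is the signalling chain for IL-2 and IL-15, was at 668, 519, 540.0 and 549.9 CPM in Unstimulated and 783, 781, 536 and 799 CPM in stimulated libraries. Again 3 stimulated libraries were above the Unstimulated range and replicate 3 within it. The log2 fold change was 0.35 ± 0.15 over all libraries (edgeR adjusted p = 0.106) and 0.47 ± 0.08 without replicate 3 (adjusted p = 0.000827), and it was also past the threshold without Unstimulated replicate 1 (adjusted p = 0.0154).

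The common chain gene Il2rg was at 345, 342, 343 and 288 CPM in Unstimulated and 414, 454, 397 and 476 CPM in stimulated libraries. It was the only receptor gene with every stimulated library above every Unstimulated one, as were 17% of all genes tested. It rose by a log2 fold change of 0.40 ± 0.09 (edgeR adjusted p = 0.0103), and by 0.44 ± 0.08 without replicate 3 (adjusted p = 0.000788). On TPM the difference was 0.07 by limma on log2(TPM + 1), where the median of all genes was -0.25 (adjusted p = 0.646). The call for Il2rg was also lost with no filter (adjusted p = 0.0781) and with the replicate number as a block (adjusted p = 0.0557).

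Il15ra had levels of 9.83, 7.87, 8.97 and 11.97 CPM in Unstimulated and 17.6, 14.5, 13.8 and 7.47 CPM in stimulated libraries. Here stimulated replicate 4, not replicate 3, was the low one. The log2 fold change of Il15ra was 0.47 ± 0.27 (edgeR adjusted p = 0.212, 95% interval -0.16 to 1.09), and it passed the threshold without stimulated replicate 4 (0.66, adjusted p = 0.047).

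Il4ra was at 296, 279.8, 300.2 and 287 CPM in Unstimulated and 366, 371, 203 and 399.8 CPM in stimulated libraries. Replicate 3 was below all Unstimulated libraries and the other 3 were above all of them. The log2 fold change was 0.20 ± 0.19 with all libraries (edgeR adjusted p = 0.432) and 0.38 ± 0.05 without replicate 3 (adjusted p = 0.000166). With replicate 3 kept, voom with sample weights also called Il4ra (0.36, adjusted p = 0.000335), and limma on log2(TPM + 1) turned its sign (-0.17, adjusted p = 0.605).

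Il7r was at 124, 141, 128 and 129 CPM in Unstimulated and 97.0, 92.7, 79.0 and 108 CPM in stimulated libraries. Il21r was at 10.2, 9.42, 8.24 and 7.53 CPM in Unstimulated and 4.73, 3.73, 3.74 and 4.53 CPM in stimulated libraries. For both genes every stimulated library was below every Unstimulated one, so that with Il2 the groups were apart downwards for 3 members, against 20.9% of all genes. Il7r fell by 0.47 ± 0.10 on the log2 scale (edgeR adjusted p = 0.00731) and by 0.40 ± 0.07 without replicate 3 (adjusted p = 0.000638). Il21r fell by 1.08 ± 0.18 (adjusted p = 0.00272) and by 1.03 ± 0.15 without replicate 3 (adjusted p = 0.000277). With replicate 3 left out, 4 members were apart upwards and 3 downwards, against 28.7% and 30.3% of all genes. Il7r and Il21r kept their calls in all 18 alternatives that were run for them.

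**Figure D2:**
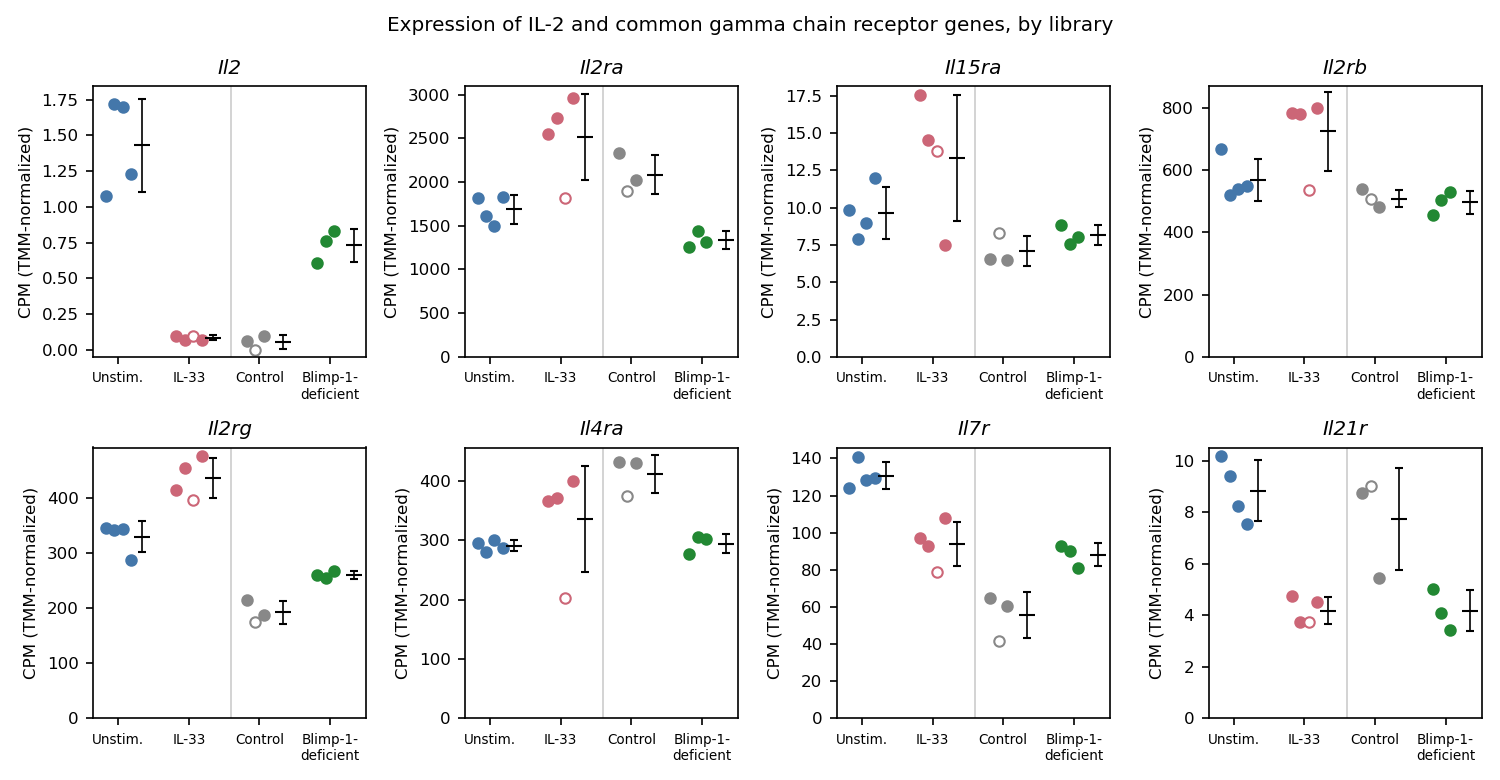
CPM of the 8 genes, with 1 point per library from replicate 1 on the left, and the mean and SD of each group in black. Open points are IL-33 stimulated replicate 3 and Control replicate 2. Il2 is near 0 in IL-33 stimulated and Control libraries, and Il7r and Il21r are lower in every IL-33 stimulated library than in every Unstimulated one.

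The Blimp-1 comparison asked how the genes differed between Blimp-1-deficient and Control ILC2s after 72 h of activation. With all 6 libraries no member passed edgeR's threshold, where 0.45% of 17335 genes were higher and 0.306% lower, although 3 members were higher and 3 lower at an unadjusted p below 0.05, as were 6.17% and 5.78% of all genes. Without Control replicate 2, Il2, Il2rg and Il7r were higher and Il2ra and Il4ra lower, or 3 and 2 of 8, against 8.25% and 5.72% of all genes. Over all 6 libraries DESeq2 called Il2, Il2rg and Il7r higher and Il2ra and Il4ra lower, and so did limma's voom with sample weights. In these, 3.22% and 3.19% of genes (DESeq2) and 7.47% and 5.34% (voom) were called higher and lower. The median log2 fold change was 0.09 over the members and -0.02 over all genes.

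Il2 had 5, 0 and 9 counts in Control and 50, 59 and 80 counts in Blimp-1-deficient libraries, or 0.0603, 0 and 0.0951 CPM against 0.604, 0.761 and 0.828 CPM. Controls 1 and 3 were below every Blimp-1-deficient library. Control replicate 2 is uninformative here, since at its depth a count of 0 allows up to 0.731 CPM, within the Blimp-1-deficient range. From the summed 189 and 14 counts Il2 was 9.55 times higher in Blimp-1-deficient ILC2s (95% interval 5.55 to 17.8, exact, counting error only), with an edgeR adjusted p of 0.0541 over all libraries and 0.00347 without Control replicate 2. The log2 fold change was 3.30 ± 0.51 and 3.21 ± 0.38. Il2 still stood at under 1 CPM. The T cell markers summed to 49.9 to 61.9 CPM in Control and 73.0 to 75.03 CPM in Blimp-1-deficient libraries, and their part was not tested. Of the 11, Cd28 (6.83 to 7.06 and 12.2 to 21.05 CPM) and Cd3g (8.28 to 13.9 and 14.8 to 19.7 CPM) were higher in every Blimp-1-deficient library. The other 9 overlapped, among them Cd3e, at 4.29 to 6.09 and 4.49 to 5.29 CPM, and Trac, at 1.51 to 6.58 and 0.786 to 2.102 CPM. Of 9 NK cell and ILC1 markers, 4 were lower in every Blimp-1-deficient library, among them Eomes, at 2.19 to 2.39 CPM in Control and 0.259 to 0.520 CPM in Blimp-1-deficient libraries, and 1 was higher. Of 8 myeloid markers 2 were higher, Adgre1, at 1.12 to 3.17 and 3.96 to 5.94 CPM, and S100a8. Of 6 epithelial and stromal markers 2 were higher, Pecam1, at 31.7 to 80.8 and 160 to 175 CPM, and Sftpc. Near the floor, S100a8 had 13 to 20 and Sftpc 2 to 3 counts in Blimp-1-deficient libraries. Of all genes tested, 11.8% were higher and 10.8% lower in every Blimp-1-deficient library. The part of these markers in the members' differences was not tested.

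Il2ra was at 2329.7, 1896 and 2024 CPM in Control and 1253, 1445 and 1313 CPM in Blimp-1-deficient libraries. All Blimp-1-deficient libraries were below all Controls. The log2 fold change was -0.64 ± 0.16 over all libraries (edgeR adjusted p = 0.175) and -0.69 ± 0.10 without Control replicate 2 (adjusted p = 0.00641). On TPM with Control replicate 2 the sign of Il2ra turned (1.14 by limma on log2(TPM + 1), adjusted p = 0.543), where the median of all genes moved to 1.28.

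Il4ra went the same way, at 432, 375 and 429.9 CPM in Control and 276, 305 and 303 CPM in Blimp-1-deficient libraries, again with no overlap. Its log2 fold change was -0.49 ± 0.11 (edgeR adjusted p = 0.135) and -0.54 ± 0.07 without Control replicate 2 (adjusted p = 0.00378), and 1.24 by limma on log2(TPM + 1). Il21r was at 8.74, 9.01 and 5.44 CPM in Control and 5.002, 4.10 and 3.44 CPM in Blimp-1-deficient libraries, with the groups apart by a small gap. Il21r had a log2 fold change of -0.87 ± 0.26 (edgeR adjusted p = 0.243) and -0.75 ± 0.24 without Control replicate 2 (adjusted p = 0.08), and 0.35 by limma on log2(TPM + 1).

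Il2rg was at 214, 175 and 187 CPM in Control and 259, 254 and 268 CPM in Blimp-1-deficient libraries. Il7r was at 64.9, 41.9 and 60.3 CPM in Control and 92.9, 90.1 and 81.2 CPM in Blimp-1-deficient libraries. All Blimp-1-deficient libraries were above all Controls for both genes. Il2rg differed by a log2 fold change of 0.44 ± 0.11 (edgeR adjusted p = 0.172) and 0.38 ± 0.08 without Control replicate 2 (adjusted p = 0.0199). Il7r differed by 0.65 ± 0.17 (adjusted p = 0.19) and 0.50 ± 0.08 (adjusted p = 0.00952). Both groups carry Cre in Il7r, and the effect of this on the level of Il7r was not tested.

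Il2rb and Il15ra showed the smallest differences. Il2rb was at 539, 507 and 481 CPM in Control and 456, 504 and 529 CPM in Blimp-1-deficient libraries, with a log2 fold change of -0.04 ± 0.12 (edgeR adjusted p = 0.952, 95% interval -0.31 to 0.24) and -0.03 ± 0.09 without Control replicate 2 (adjusted p = 0.848). Il15ra was at 6.57, 8.28 and 6.52 CPM in Control and 8.86, 7.53 and 8.03 CPM in Blimp-1-deficient libraries. The log2 fold change of Il15ra came to 0.21 ± 0.16 (adjusted p = 0.685) with all libraries and 0.32 ± 0.11 without Control replicate 2 (adjusted p = 0.104). In CPM with all 6 libraries, 3 members were apart upwards and 3 downwards, against 11.8% and 10.8% of all genes, with Il2 apart upwards only if its 0 counts in Control replicate 2 are taken at face value, and Il2rb and Il15ra overlapped. Without Control replicate 2 Il15ra was apart as well, which gave 4 upwards and 3 downwards against 24.4% and 26.7%.

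**Figure D3:**
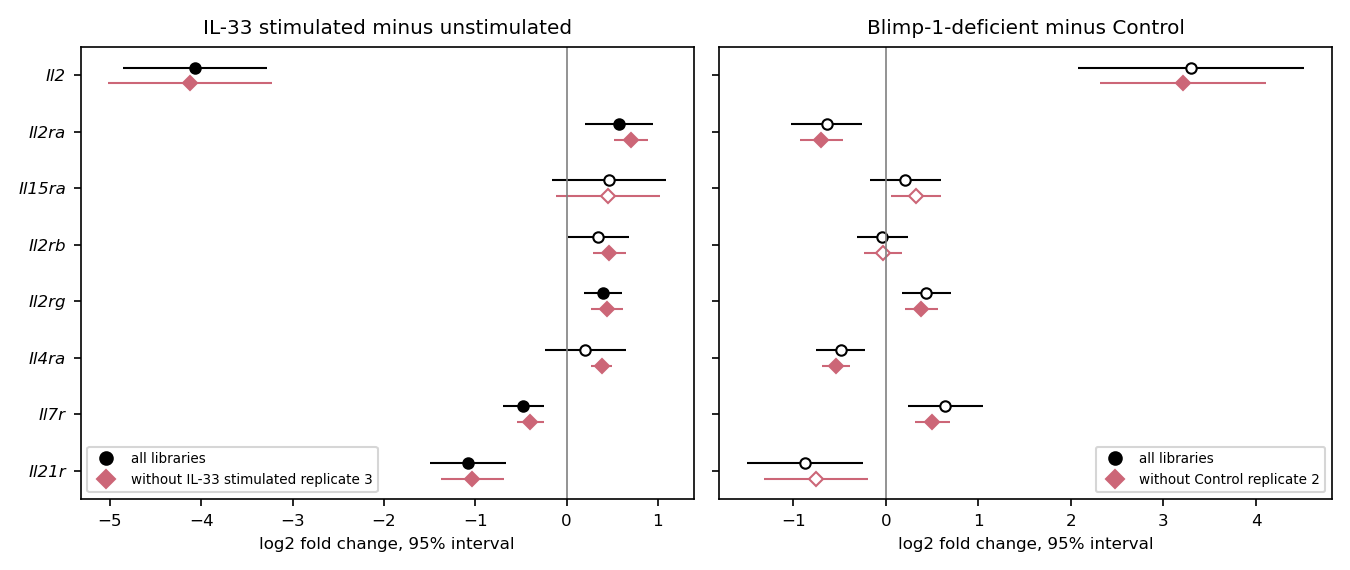
Log2 fold changes of the 8 genes from edgeR with 95% intervals, for IL-33 stimulated minus Unstimulated (left) and Blimp-1-deficient minus Control (right). Black circles use all libraries and red diamonds leave out 1, and filled symbols have an adjusted p below 0.05. Il2 lies at -4.07 on the left and 3.30 on the right, and with all libraries no symbol on the right is filled.

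A ratio to Il2rg within a library does not depend on how the library was scaled. Per 100 TPM of Il2rg, Il2ra was at 455, 454 and 452 TPM in the Controls, replicate 2 included, and at 202, 238 and 205 TPM in Blimp-1-deficient libraries. Control replicate 2 thus sat with its group for Il2ra and, below, for Il4ra, but outside the range of the other Controls for Il2rb, Il7r, Il21r and Il15ra (2.55 TPM against 1.65 and 1.87 TPM). Il4ra was at 80.2, 85.5 and 91.3 TPM against 42.4, 47.8 and 44.9 TPM. Il2rb, which did not differ in CPM, was at 216, 248.9 and 220.3 TPM against 151, 170.2 and 169 TPM, and Il21r at 2.93, 3.71 and 2.09 TPM against 1.38, 1.16 and 0.921 TPM. In this measure 4 members (Il2ra, Il2rb, Il4ra and Il21r) were lower in every Blimp-1-deficient library, and Il2 was higher than in Controls 1 and 3, its 0 counts in Control replicate 2 saying nothing either way, while 44.2% of all genes were lower and 3.04% higher, since Il2rg itself was higher. Il7r overlapped, at 15.5, 12.3 and 16.5 TPM in Control and 18.3, 18.2 and 15.5 TPM in Blimp-1-deficient libraries.

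In the stimulation experiment the ratio of Il2ra to Il2rg overlapped, at 182 to 265 TPM per 100 TPM of Il2rg in Unstimulated and 192 to 259.9 TPM in IL-33 stimulated libraries. Il2rb (130.1 to 166 and 116 to 162 TPM) and Il4ra (32.5 to 39.8 and 20.3 to 35.2 TPM) overlapped as well. Il7r was lower in every stimulated library, at 18.4 to 23.0 and 10.2 to 11.98 TPM, and so was Il21r, at 1.73 to 2.12 and 0.590 to 0.820 TPM. With Il2 these were 3 members lower and none higher, against 38% and 6.19% of all genes.

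**Figure D4:**
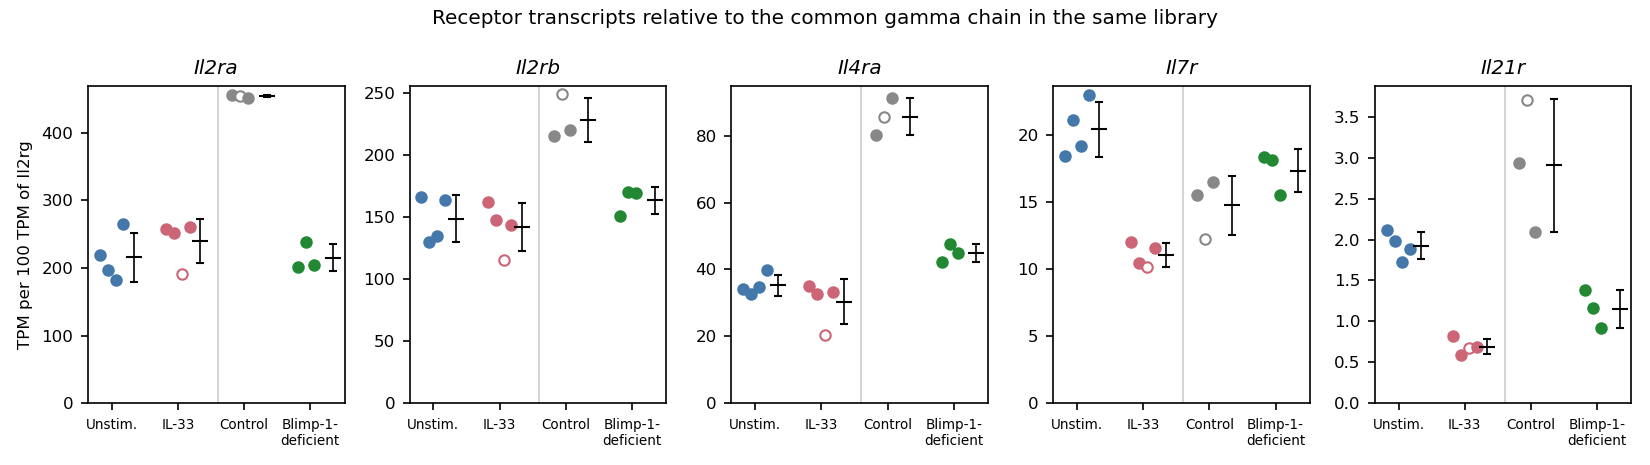
TPM of 5 receptor genes per 100 TPM of Il2rg in the same library, with 1 point per library, the mean and SD of each group in black, and open points for IL-33 stimulated replicate 3 and Control replicate 2. The 3 Control values of Il2ra lie between 452 and 455, above the Blimp-1-deficient values of 202 to 238.

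The other genes of the pathway were taken from a list of 45, of which 43 were tested in the stimulation experiment. After IL-33, 10 rose and 9 fell, or 23.3% and 20.9% of those tested, beside 16.2% and 16.1% of all genes. The median log2 fold change of the list was -0.02. Without IL-33 stimulated replicate 3, 18 rose and 13 fell, or 41.9% and 30.2%, beside 27.5% and 29.7% of all genes. The genes named next kept their direction and call without it.

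Among the ligands, 3 of 5 tested rose after IL-33. Il9, the growth factor that signals through the common gamma chain and the IL-9 receptor, had 0 counts in 3 Unstimulated libraries and 0.0694 CPM in the other, against 3435 to 5313 CPM after IL-33. Il13, whose product uses the Il4ra chain, rose from 90.8 to 230.4 CPM to 9279 CPM or more, a log2 fold change of 6.68 ± 0.45 (edgeR adjusted p = 3.8e-05), and Il4 rose by 1.68 ± 0.18 (adjusted p = 0.000271). Among the partner chains, Il13ra2, the decoy receptor for IL-13, rose by 1.78 ± 0.55 at under 2.2 CPM (adjusted p = 0.0396). Il9r, the private chain for IL-9, fell by 1.10 ± 0.21 (adjusted p = 0.00483), and Crlf2, the TSLP receptor chain that pairs with Il7r, fell by 0.80 ± 0.24 (adjusted p = 0.0385). The calls of Il13ra2 and Crlf2 were narrow, and leaving out single libraries took their adjusted p to as much as 0.108 and 0.0895.

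Of the signalling genes, Jak2 rose by 1.54 ± 0.10 (edgeR adjusted p = 3.06e-05) as the only one of 4 kinases, and none of 5 STAT genes passed with all libraries. Without replicate 3, Tyk2 and 3 STAT genes (Stat5a, Stat5b and Stat6) were higher as well. The feedback inhibitor Socs2 fell by 0.83 ± 0.08 (adjusted p = 0.00015) and the adaptor and inhibitor Sh2b3 by 0.76 ± 0.16 (adjusted p = 0.00758). The PI3K subunit genes Pik3cd and Pik3r1 fell by 0.99 ± 0.16 and 0.60 ± 0.06, and the adaptor Gab2 by 0.77 ± 0.07. Of 8 target genes, 5 rose and 2 fell. The kinase gene Pim2 rose by 2.54 ± 0.11 (adjusted p = 6.55e-06), Myc by 1.65 ± 0.13 and the survival gene Bcl2l1 by 1.22 ± 0.12, while Bcl2, another survival gene, fell by 0.93 ± 0.09 (adjusted p = 0.000158).

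Without Blimp-1, 2 of 44 genes tested rose with all 6 libraries and 0 fell, beside 0.45% and 0.306% of all genes. At an unadjusted p below 0.05 they were 12 and 4, beside 6.17% and 5.78% of all genes, and DESeq2 called 6 and 3, beside 3.22% and 3.19%. Both edgeR calls were target genes. Bcl2 was at 62.9, 57.5 and 64.8 CPM in Control and 128, 148 and 138 CPM in Blimp-1-deficient libraries, a log2 fold change of 1.16 ± 0.10 (edgeR adjusted p = 0.0122). Pim2 was at 86.1, 59.2 and 85.7 CPM against 194, 224 and 215 CPM, a log2 fold change of 1.45 ± 0.17 (adjusted p = 0.0294). Leaving out any 1 library other than Control replicate 2 took the adjusted p of both above 0.05, to as much as 0.145 for Bcl2 and 0.212 for Pim2.

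Without Control replicate 2, 11 pathway genes were higher and 6 lower, or 25% and 13.6% of those tested, beside 8.25% and 5.72% of all genes. In this comparison Il9 was higher by a log2 fold change of 1.33 ± 0.18 (edgeR adjusted p = 0.00568) and Il9r was lower, at -0.55 ± 0.06 (adjusted p = 0.00318). Of the STAT genes, Stat5b and Stat6 were among those higher. Jak2 was higher by 0.53 ± 0.10 (adjusted p = 0.0147) and Il13ra1 by 0.82 ± 0.15 (adjusted p = 0.0159). With all 6 libraries Il13ra1 had the opposite sign (-0.35 ± 0.69, adjusted p = 0.902), and the other genes named here had the same sign with no call. Inhibitors went both ways, with Sh2b3 (0.69 ± 0.08), Socs1 (0.58 ± 0.13) and Ptpn6 higher and Socs3 (-0.84 ± 0.13), Socs2 (-0.40 ± 0.07) and Ptpn2 (-0.27 ± 0.07) lower. Sos1, a guanine nucleotide exchange factor for Ras, was lower, at -0.82 ± 0.07, and so was Pim1, at -0.39 ± 0.09.

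**Figure D5:**
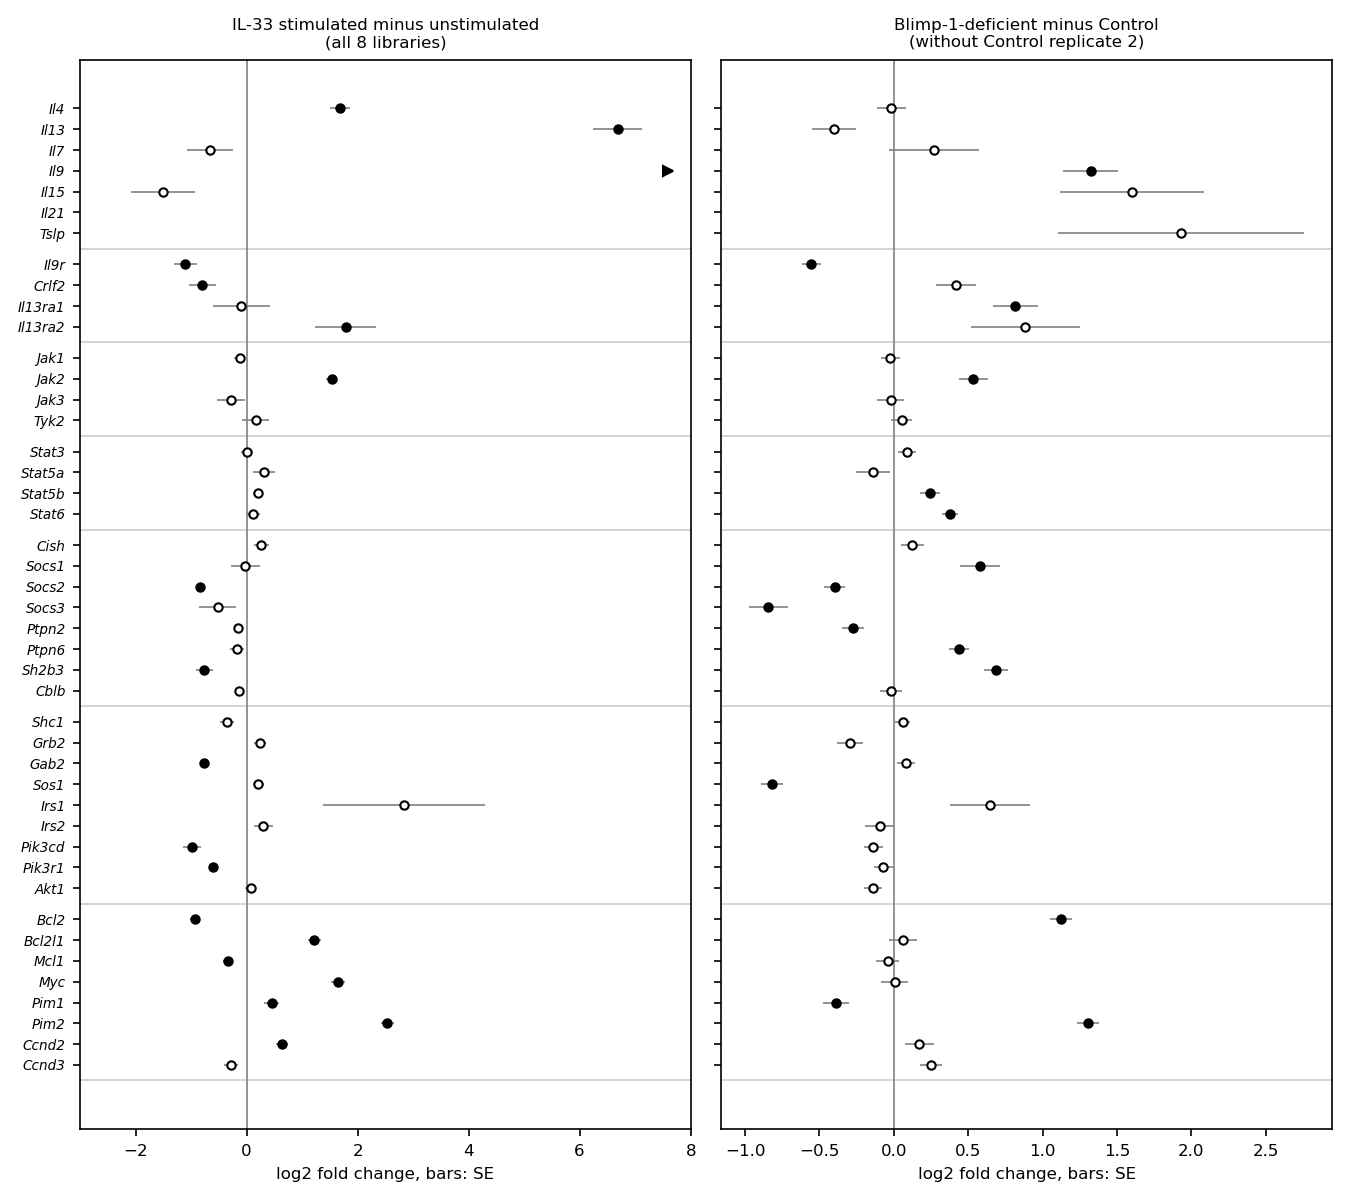
Log2 fold changes with SE of 44 of the 45 pathway genes, grouped by role from ligands (top) to target genes (bottom), for IL-33 stimulated minus Unstimulated with all 8 libraries and Blimp-1-deficient minus Control without Control replicate 2. Filled points have an adjusted p below 0.05, genes without a point were not tested, and the arrow for Il9 points beyond the axis. Pim2 is filled in both panels on the right of 0, and Bcl2 is filled on the left of 0 in one and on the right in the other.

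The genes whose levels followed each member most closely were named by the highest Pearson r of log2(CPM + 1) over the 8 stimulation libraries, among 10809 genes with a mean of at least 5 CPM. These libraries fall into 2 groups and share replicate 3, so the values are a description. Closest to Il2ra were Tmem189, Rnf4 and Tor1a (r = 0.994, 0.991 and 0.991), to Il2rb Rer1 and Mrpl36 (0.986 and 0.984) and to Il2rg Ndufab1, Fmc1 and Tomm20 (0.988, 0.987 and 0.984). Closest to Il4ra were Slc38a10, Dohh and Espn (0.998, 0.998 and 0.993), to Il7r Cables2, Pbxip1 and Camk4 (0.995, 0.993 and 0.993) and to Il21r Sumf1, St3gal2 and Sec22c (0.991, 0.989 and 0.989). Il15ra had no gene as close, with Olfr56, Arl4a and Rgs1 at 0.945, 0.933 and 0.931.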

How the data were processed

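From paired-end reads of 75 bases, after adaptor trimming (cutadapt) and HISAT2 alignment to GRCm38, the authors obtained Subread counts per gene and deposited raw counts and, from these and gene lengths, TPM for each experiment. The labels' processing notes also list Bowtie2, DESeq2 and mm10. The libraries were SMART-seq v4 cDNA without molecular identifiers. Separate mice are described for the samples, while a figure legend of the study mentions pooled animals.

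Counts were tested with edgeR 4.0.16 in R 4.3.3 (TMM, filterByExpr, quasi-likelihood, two-sided, Benjamini-Hochberg over all genes tested, threshold 0.05), within each experiment and with no term for the replicate number. CPM are TMM-normalized counts. DESeq2 1.42.0, limma 3.58.1, other scalings and filters, and each library left out in turn served as alternatives, and the Il2rb length was added after seeing the data. On simulated counts for 15466 genes of the stimulation design, edgeR recovered 29 of 100 genes changed by 1 on the log2 scale and 57 of 100 changed by 2. For 17335 genes of the Blimp-1 design it recovered 23 and 56. The changed genes were drawn at random from all genes tested, so these rates are not those of the members. Of 94 calls in the first design 8 were false, and of 85 in the second 6 were. All sample columns were used. A few items are not reported here. The members, the 45 pathway genes, the 8 largest rises and 8 largest falls named per comparison, the markers and the alternatives were chosen with earlier results of these data known.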

Additional observations from a re-analysis of the deposited data

Results flagged for a closer look

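In groups of 4 libraries, a library was picked out when its gap to the nearest other was over 0.829 of the group's range, which chance does in about 1 of 20 groups. Among the members and all pathway genes 106 groups could be looked at and 18 had such a library, 13 of them IL-33 stimulated replicate 3. Of the members, Il2rb was at 536 CPM (nearest library 781) and Il4ra at 203 CPM (nearest 366) in that library. Lower there than in the other stimulated libraries were also Crlf2 at 21.4 CPM, Tyk2 at 41.9 CPM (nearest 93.0), Stat5b at 83.6 CPM, Socs1 at 116 CPM (nearest 262), Ptpn6 at 37.0 CPM, Shc1 at 70.2 CPM, Akt1 at 318 CPM and Ccnd3 at 249 CPM. Higher there were Il13ra1 at 7.49 CPM (nearest 2.56), Irs1 at 14.9 CPM (nearest 0.425) and Il21 at 0.985 CPM. In Unstimulated replicate 4, Il2rg was at 288 CPM, below the nearest library at 342. In Unstimulated replicate 1, Il9 was at 0.0694 CPM and at 0 in the others, and Shc1 was at 118 CPM. In Unstimulated replicate 3, Il21 was at 0.0850 CPM and at 0 in the others, and Tslp was at 1.66 CPM.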

How the results depend on the processing

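After IL-33, 2 members were higher and 3 lower, and the higher count came to 5 with voom, 3 with DESeq2, 1 with library size alone or the replicate block, and 0 with no filter or with limma on log2(TPM + 1) or log2(TPM + 0.1). Of all genes, 29.5%, 19.4%, 11.7%, 11.7%, 5.91%, 6.53% and 6.43% were higher in these, in the same order. Leaving out single libraries gave 1 to 4 higher, with 4 only without IL-33 stimulated replicate 3, and 3 lower, beside 11.8% to 27.5% and 11.6% to 29.7% of all genes. Pathway genes were 10 higher and 9 lower, and came to 19 higher with voom, to 14 lower with library size alone (23.9% of all genes), to 15 lower with the 7 loci left out (23.0%), to 15 and 14 lower with limma on TPM (30.0% and 28.8%), and to 8 to 18 higher and 7 to 13 lower with single libraries left out. Limma on TPM moved the median of all genes to -0.25 and -0.29 and turned Il4ra to -0.17 with either pseudocount.

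Without Blimp-1, 0 members were called, against 3 higher and 2 lower with DESeq2 and with voom, 1 higher with library size alone (0.565% of all genes), 1 lower at a mean count of at least 50 (0.795%), and 0 to 3 higher and 0 to 2 lower with single libraries left out (0% to 8.25% and 0% to 5.72%). The 2 higher and 0 lower pathway genes came to 6 and 3 with DESeq2 (3.22% and 3.19% of all genes), 11 and 5 with voom (7.47% and 5.34%), 0 higher with library size alone, limma on TPM or the replicate block, 1 lower with no filter (0.126%) or at a mean count of at least 50, and 0 to 11 higher and 0 to 6 lower with single libraries left out. The top of these ranges came without Control replicate 2. Library size alone moved the median of all genes to 0.45, and limma on TPM moved it to 1.28 and 1.69.

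Signs turned for some genes without Blimp-1, and the cause was not tested beyond these shifts. With limma on log2(TPM + 1) and log2(TPM + 0.1), Il2ra was at 1.14 and 1.15, Il2rb at 1.72 and 1.74, Il4ra at 1.24 and 1.29, Il21r at 0.35 and 0.79, Il13ra1 at 1.06 and 1.64, Socs3 at 0.82 and 0.87, Sos1 at 0.66 and 0.79, Il9r at 1.15 and 1.33, Socs2 at 1.15 and 1.55, Pim1 at 1.32 and 1.36, and Ptpn2 at 1.52 and 1.78. With library size alone Il2rb was at 0.45, Il13ra1 at 0.74, Socs2 at 0.15, Pim1 at 0.085 and Ptpn2 at 0.28. Il2rb was at 0.0058 with voom, 0.0065 with no filter, and with single libraries left out from -0.081 to 0.030. Il13ra1 was at 0.78 with voom and ran from -0.74 to 0.82 with single libraries left out, beside -0.35 over all libraries. Ptpn2 ran from -0.27 to 0.13 with single libraries left out.

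With the replicate block, Il13ra1 was at 0.066 and Ptpn2 at 0.0062. By the series' design text, same-numbered libraries come from different mice, although the labels number the mice alike in each group. Their deviations correlated at -0.11, 0.21, 0.39 and 0.17 in the stimulation and -0.06, -0.13 and 0.11 in the Blimp-1 experiment. These correlations do not settle whether the numbers pair the stimulation libraries. The block took the adjusted p of Il2rg after IL-33 to 0.0557.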
